A study of Mus musculus with 12 samples.

Results

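DNA methylation was followed at 10 genes of protein secretion and the unfolded protein response, Xbp1, Creld2, Mzb1, Herpud1, Derl3, Txndc5, Sub1, Hspa5, Spcs2 and Edem1, through the divisions of LPS-stimulated mouse B cells. Every CpG that the deposited annotation assigns to one of these symbols was taken, which gave 503 of the 760348 CpGs with at least 10 reads in every library, between 7 for Spcs2 and 127 for Edem1. Of these, 235 lay within 1000 bp of the annotated start site and are called start-site CpGs. A further 76 lay elsewhere in an exon, intron or untranslated region and are called gene-body CpGs. The remaining 192 lay outside the genes and are called flank CpGs. All positions are in the mouse build mm9.

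The libraries are reduced representation bisulfite sequencing (RRBS), in which MspI and TaqI fragments are bisulfite-converted and read, so that each CpG has a count of methylated and of unmethylated reads. Splenic B220+ CD43- B cells of naive mice were labelled with CFSE or CTV, dyes that are diluted at each division, and transferred into uMT hosts, a strain that lacks mature B cells of its own. The hosts rested overnight, were given LPS, and the transferred cells were sorted from the spleen on day 3. The 6 sorted fractions were undivided cells (Div0), cells after 1, 3 or 5 divisions (Div1, Div3, Div5), and cells after at least 8 divisions that lacked CD138 (Div8neg) or carried it (Div8pos). CD138 is the surface proteoglycan syndecan-1, a marker of plasmablasts and plasma cells. Each fraction was sorted from the same 2 hosts, numbered 196 and 197, which gave 12 libraries. The series text names C57/BL6J donors, while the sample labels give females of 8 weeks of the strain B6.SJL-Ptprca Pepcb/BoyJ without saying whether this is donor or host. All fractions, Div0 included, came from LPS-challenged hosts, and unstimulated cells were not analysed here.

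A B cell that becomes an antibody-secreting cell enlarges its endoplasmic reticulum and its machinery for import, folding, glycosylation and disposal of proteins. The unfolded protein response senses unfolded proteins in that compartment through Ire1, Perk and Atf6. Ire1 splices the Xbp1 mRNA, and the transcription factors XBP1 and ATF6 act through promoter elements that share the core CCACG, among them the ER stress response element (ERSE, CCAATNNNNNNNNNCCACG), ERSE-II (ATTGGNCCACG) and the unfolded protein response element (UPRE, TGACGTGG). Methylation of a promoter CpG island usually goes with silencing, whereas most gene bodies of active genes are methylated.

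The promoter elements are shown because each holds a CpG, and whether its methylation was measured is given below. Promoter sequences were taken from RefSeq (GRCm38.p6), in which the genes other than Mzb1 matched. Both strands were searched, and a core inside an ERSE, ERSE-II or UPRE was also counted as a core. The 5 stretches below run 5′ to 3′ on the gene's own strand, and capitals mark the element.
Hspa5 (ERSE, chr2:34772005-34772063, plus-strand gene): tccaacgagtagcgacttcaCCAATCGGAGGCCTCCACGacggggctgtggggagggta
Derl3 (ERSE on the opposite strand, chr10:75893222-75893280, plus-strand gene): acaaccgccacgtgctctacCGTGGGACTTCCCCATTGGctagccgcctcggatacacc
Creld2 (ERSE on the opposite strand, chr15:88819500-88819558, plus-strand gene): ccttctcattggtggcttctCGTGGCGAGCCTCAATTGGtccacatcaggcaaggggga
Herpud1 (ERSE-II, chr8:94386357-94386407, plus-strand gene): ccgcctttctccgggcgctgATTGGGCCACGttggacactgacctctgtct
Txndc5 (UPRE, chr13:38528025-38528072, minus-strand gene): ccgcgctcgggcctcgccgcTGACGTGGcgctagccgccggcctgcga
Among all 32851 RefSeq promoters in the table, 0.119% held an exact ERSE, 0.0365% an ERSE-II, 0.676% a UPRE and 32.8% a core. Sub1, Edem1 and Spcs2 had cores only, and the Xbp1 window held none of the 4 motifs.

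The measured CpGs were placed on these promoters by their spacing, which all measured CpGs had to match, and this succeeded for Hspa5, Derl3, Edem1, Spcs2, Sub1 and the downstream 2 of the 3 Txndc5 starts. The CpG inside the Hspa5 ERSE (mm9 chr2:34627562) had a methylation level, with the reads of both hosts pooled, of 3.94% at Div0, 2.74% at Div8neg and 0.714% at Div8pos. That inside the Derl3 ERSE (mm9 chr10:75355987) had 3.64%, 1.56% and 1.45%. Both were unmethylated in nearly every read before the first division, with at least 64 reads a fraction. The CpG of the Txndc5 UPRE was not among those measured. The promoters of Creld2 and Herpud1 could not be placed, so their elements have no methylation value. The core of Edem1 (mm9 chr6:108778433) had 0% at Div0, 3.33% at Div8neg and 0.585% at Div8pos, and a second core of Derl3 (mm9 chr10:75355977) 0.909%, 3.17% and 0.725%. A core of Txndc5 (mm9 chr13:38619745) had 2.38%, 0.8% and 2.68%. Of the Sub1 cores, read at as few as 11 reads a fraction, one (mm9 chr15:11925824) had 0%, 3.33% and 10% and the other (mm9 chr15:11925835) 0%, 3.33% and 0%.

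Total reads over CpGs ran from 17969105 to 56775157 a library, and the median coverage of a CpG from 20 to 66, with the libraries of host 196 shallower in every fraction. Single CpGs were compared in a quasi-binomial logistic model on the read counts, with dispersions moderated by limma, Benjamini-Hochberg adjustment over all 760348 CpGs, and a call at an adjusted p under 0.05 with at least 20 percentage points. Mean levels of a gene's start site or body, over at least 3 CpGs, were compared with limma over 24503 such levels and called from 10 points. An exact two-sided permutation test of 2 hosts against 2 can give no p below 1 in 3, so single values are given with their hosts and all p values come from these models.

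The sorted cells were checked on the start sites of lineage markers. Over the 3 measured of 5 B cell markers (Cd79a, Cd79b, Pax5) the mean level was 3.21% and 4.66% at Div0, 4.15% and 5.48% at Div8neg and 2.58% and 5.60% at Div8pos in hosts 196 and 197. Div8neg was higher than Div0 at 2 of these 3, with Cd79a lower, and limma called neither of the 2 that could be tested. The 4 measured of 6 T cell markers averaged 74.5% at Div0, 70.7% at Div8neg and 61.9% at Div8pos, and the 3 measured of 5 myeloid markers 76.1%, 74.6% and 65.1%. Prf1, the one measured of 3 NK cell markers, had 96.0%, 91.9% and 89.3%, and Klf1, the one measured of 3 erythroid markers, 1.16%, 1.33% and 2.40%. The lists do not cover every lineage gene, and the part of other cells in the Div8neg results below was not tested.

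**Figure D1:**
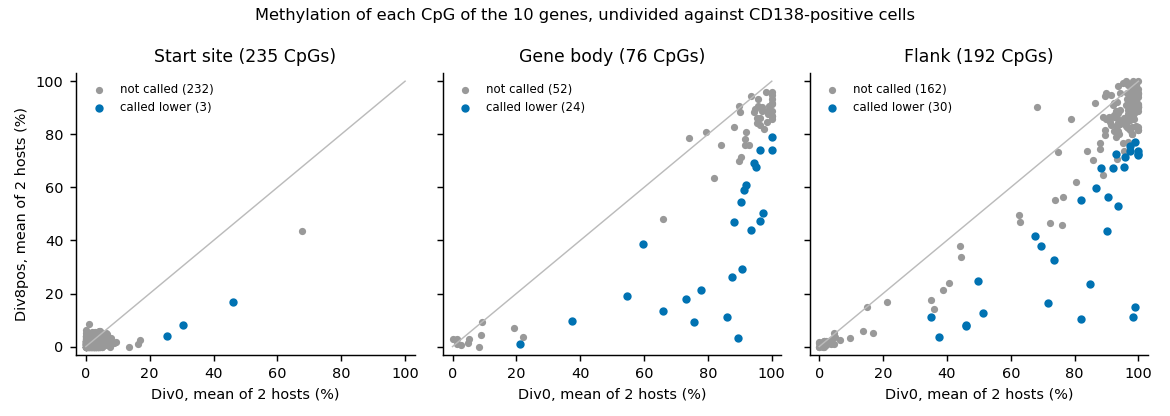
Each point is a CpG of the 10 genes, with its methylation in undivided cells on the x axis and in CD138+ cells on the y axis (%, means of 2 hosts), in panels for start sites, gene bodies and flanks, and blue points are CpGs called lower. Start-site CpGs crowd at the origin with 3 called, while 24 gene-body and 30 flank CpGs are called lower.

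Between undivided and CD138+ cells methylation fell at 57 of the 503 CpGs (11.3%) and rose at 0, in a background of 6.61% lower and 0.0271% higher over all CpGs tested. All 10 genes, with 7 to 127 CpGs each, had at least 1 such CpG, from 1 for Xbp1 to 12 for Txndc5. The share of all genes with such a CpG was not computed, so this count has no background and says little. The called CpGs of Xbp1, Edem1, Sub1 and Mzb1 all lay in flanks. In every one of the 57 both CD138+ libraries lay below both undivided ones, which a selection on these same libraries favours. The share separated in this way among all called CpGs was not computed. By region the share called was 3 of 235 at start sites against a background of 1.09%, 24 of 76 in gene bodies (31.6%) against 9.29%, and 30 of 192 in flanks (15.6%) against 9.47%. Txndc5 held 35 of the 76 gene-body CpGs and 11 of the 24 called, and the 24 lay in 5 genes, so that share rests on few genes. Most start-site CpGs had little methylation to lose. Among CpGs of at least 20% at Div0, the share was 3 of 4 at start sites (background 10%), 24 of 66 in bodies (10.7%) and 30 of 166 in flanks (10.9%). The median difference over the 76 gene-body CpGs, which lie in 8 of the 10 genes, was -12.54 points, against -6.81 over all gene-body CpGs measured. The 57 CpGs had a median of 88.3% in undivided cells, between 86.4% and 83.7% after 1 to 5 divisions, 64.9% in CD138- and 41.7% in CD138+ cells, values that describe CpGs chosen by their first and last fraction. The count rested in part on host 197, with 25 CpGs called without its Div0 library, and 20 of the 57 kept their call whichever of the 4 libraries was left out. All 57 kept it when the Div8neg libraries were left out of the fit.

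The start sites covered in every library held little methylation in any fraction. Of the 235 start-site CpGs, 192 were under 10% in every library. The mean start-site level of the 8 genes with at least 3 such CpGs lay between 0.938% and 9.32% in every fraction, beside a median of 3.37% at Div0 over 12533 start sites. A call needs a difference of 10 points, so none of these 8 levels could have been called lower, and limma called none in the 6 comparisons. Over all start sites, 3637 of which were at 10% or more at Div0, 4.13% were called lower in Div8pos minus Div0, 0.981% in each comparison with Div8neg, 0.0718% in Div5 and 0% in Div3 and Div1. With no limit on size, limma's adjusted p was under 0.05 for 1 of the 8 in Div8pos minus Div0, beside 15.4% of all start sites lower, and for 0 in the other comparisons. That level was of Derl3, with 5.15% and 2.69% at Div0 and 1.61% and 1.16% at Div8pos (-2.53 points, adjusted p = 0.0389), and its p was above 0.05 without the Div0 library of host 196 (0.27) or either Div8pos library (0.0842 and 0.147). At an unadjusted p under 0.05, 2 of the 8 were lower in Div8pos than in Div0 and 0 higher, beside 20.4% of all start sites changed in either direction. Xbp1, the transcription factor at the head of the programme, had 2.35% and 1.40% at Div0 and 1.75% and 0.883% at Div8pos over 33 CpGs. Hspa5 had 3.32% and 1.16% at Div0 and 2.36% and 1.70% at Div8pos over 49 CpGs. Div0 and Div8pos overlapped in both genes. The Div8neg libraries of Xbp1, at 2.72% and 2.46%, were the highest of its 12, with a Div8pos minus Div8neg adjusted p of 0.187 from limma.

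The 3 called CpGs of the start-site windows lay downstream of the start. They were among only 4 start-site CpGs at 20% or more at Div0, so their position reflects which CpGs could be called. A Creld2 CpG 732 bp downstream of the start (chr15:88650809) had 48.1% and 43.8% in the Div0 libraries, 30.8% and 18.2% at Div8neg and 18.4% and 15.5% at Div8pos (Div8pos minus Div0, -29.02 points, adjusted p = 0.000835). A Derl3 CpG at +464 bp (chr10:75356608) had 27.8% and 23.1% at Div0 and 5.56% and 2.22% at Div8pos (-21.54 points, adjusted p = 0.00758). A Txndc5 CpG at +462 bp (chr13:38619320) had 29.6% and 31.2% at Div0 and 12.1% and 3.77% at Div8pos (-22.49 points, adjusted p = 0.00384). In each the groups of 2 hosts did not overlap. All 3 calls were lost without the Div0 library of host 197, at adjusted p values of 0.0714, 0.126 and 0.135, with differences of -31.2, -23.9 and -21.7 points. Those of Derl3 and Txndc5 were also lost without the Div8pos library of host 197, and that of Derl3 without the Div0 library of host 196.

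**Figure D2:**
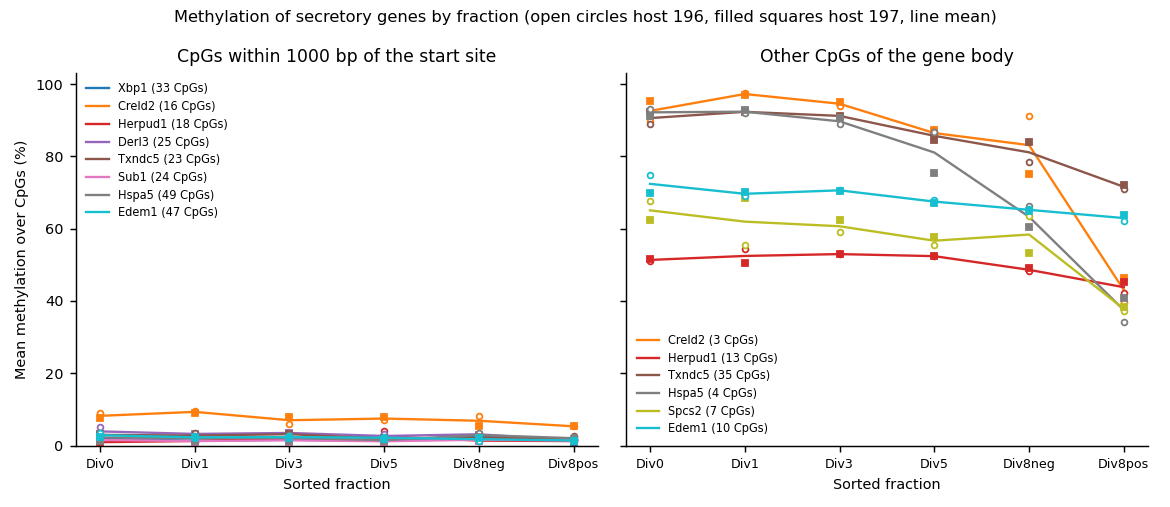
Mean methylation (%) over the CpGs of each gene by sorted fraction, with start sites in the left panel and gene bodies in the right; lines are means of 2 hosts, open circles host 196 and filled squares host 197. Each of the 8 start sites plotted stays under 10%, while the bodies of Creld2, Hspa5, Spcs2 and Txndc5 drop at the last fraction or the last 2. Mzb1 and Spcs2 had no start-site CpG with 10 reads in every library and are not in the left panel.

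Of the 6 genes with at least 3 measured gene-body CpGs, 4 had a lower body level in Div8pos than in Div0, in a background of 36.7% of gene bodies called lower. The median difference of the 6 was -23.13 points, against -8.69 over all 11970 gene bodies. The 4 calls held without each library in turn.

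Hspa5 encodes BiP, the Hsp70 chaperone of the endoplasmic reticulum that holds unfolded proteins and keeps the stress sensors inactive. Its 4 measured gene-body CpGs lie 2270 to 2722 bp downstream of the start, in exons and an intron (chr2:34629881-34630333). Their mean level was 93.1% and 91.3% at Div0 in hosts 196 and 197. After 1 division it was 91.9% and 92.8%, after 3 it was 88.9% and 90.5%, and after 5 it was 86.8% and 75.3%. The CD138- cells had 66.2% and 60.4%, and the CD138+ cells 34.2% and 40.8%. The level of the CD138- cells thus lay between those of the undivided and the CD138+ cells, and neither Div8 group overlapped the other or Div0. Methylation fell by 28.91 points from Div0 to Div8neg (adjusted p = 0.00163) and the Div8pos level differed from Div8neg by -25.80 (adjusted p = 0.00152). From Div0 to Div8pos the difference was -54.71 ± 3.63 (SE, adjusted p = 1.08e-05). All 4 CpGs were called, and each kept its call without any one library. Where the promoter class of the files marked the start site instead, CpGs nearer the start counted to the body, and the difference was -11.91 points from Div0 to Div8pos, still called, and -5.49 and -6.42 points in the comparisons with Div8neg, not called. The measured CpGs of its promoter, 21 of the 25 in the RefSeq window, averaged 1.00% at Div0, 3.30% at Div8neg and 1.10% at Div8pos.

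Creld2 encodes an ER-stress-induced protein of the secretory pathway. Its 3 measured intronic CpGs, 2018 to 2497 bp downstream of the start (chr15:88652095-88652574), had a mean level of 89.7% and 95.5% at Div0, 91.2% and 75% at Div8neg and 39.8% and 46.3% at Div8pos. Most of the difference lay between the CD138- and CD138+ cells, with -40.09 points from Div8neg to Div8pos (adjusted p = 0.000713) and -49.55 ± 4.56 (SE) from Div0 (adjusted p = 3.97e-05). The Div8neg level differed from Div0 by -9.46 points (adjusted p = 0.178), and was called lower without the Div8neg library of host 196 (-17.56 points, adjusted p = 0.00829). The CpG at +2018 bp differed most, with 83.3% and 95.5% at Div0, 92.5% and 86.7% at Div3, 75.8% and 82.8% at Div5, 77.8% and 45.0% at Div8neg and 1.61% and 5.08% at Div8pos. Among the member CpGs with a mean above 80% at Div0 it had the lowest mean at Div8pos, and its Div8neg hosts lay far apart. The CpG at +2150 bp (chr15:88652227) had 95.8% and 85.3% at Div8neg and 41.7% and 51.9% at Div8pos. Of 3 called flank CpGs beyond the gene, the one at chr15:88669786 had 85.0% and 95.5% at Div0, 74.1% and 71.0% at Div8neg and 42.2% and 44.8% at Div8pos, a call that held without any one library. Those at chr15:88663108 (-24.82 points) and chr15:88669795 (-25.88 points) did not hold. The intronic CpGs at +2018 and +2150 bp also lie in the promoter window of the neighbouring gene Alg12, so the same change can be listed under either gene.

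Txndc5, a disulfide isomerase of the endoplasmic reticulum, had 35 gene-body CpGs between 11110 and 24864 bp downstream of the start, with a mean level of 88.9% and 92.3% at Div0, 86.8% and 84.6% at Div5, 78.3% and 83.9% at Div8neg and 71.1% and 72.1% at Div8pos (Div8pos minus Div0, -19.02 ± 1.78, SE, adjusted p = 4.24e-05). Over the CpGs with at least 20 reads in every library the difference was -12.55 points. The change was uneven along the gene. A group of 9 intronic CpGs 24505 to 24856 bp from the start (chr13:38594926-38595277), 6 of them called, had 69.5% and 80.9% at Div0, 58.9% and 59.6% at Div5, 47.6% and 62.1% at Div8neg and 39.6% and 44.3% at Div8pos. Its last CpG (chr13:38595277) had already fallen at Div5, with 72.7% and 78.3% at Div0, 76.9% and 65.7% at Div3, 33.3% and 23.5% at Div5, 7.69% and 40.0% at Div8neg and 9.52% and 9.38% at Div8pos. Its Div5 minus Div0 difference was -47.06 points (adjusted p = 0.0174), on 11 to 39 reads a library, and was lost without either Div0 library or the Div5 library of host 197 (-49.8, -44.3 and -42.2 points). A second group of 3 CpGs, 11110 to 11141 bp from the start (chr13:38608641-38608672), had 90.2% and 97.9% at Div0, 88.9% and 90.6% at Div8neg and 64.2% and 63.5% at Div8pos. Each of the 3 was called lower in Div8pos than in Div8neg, by -22.62 to -32.48 points, and each lost that call without the Div8neg or the Div8pos library of host 197. Single called CpGs lay at chr13:38596364 (-25.27 points), chr13:38597624 (-35.87) and chr13:38606647 (-25.89), and that at chr13:38597624 held without any one library. CpGs within 50 bases are read on the same reads, so the CpGs of such a group are not independent.

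Mzb1, a co-chaperone that helps B cells assemble immunoglobulin, had a mean of 21.5% and 18.2% at Div0 over its 19 flank CpGs, 5 of which were at 20% or more. Its 2 gene-body CpGs of the main table averaged 15.0% and 13.6% at Div0, 25.8% and 29.3% at Div8neg and 12.9% and 3.35% at Div8pos. The one in the 3′ untranslated region (chr18:35807106) was called lower in Div8pos than in Div8neg (-22.74 points, adjusted p = 0.0362), a call that was lost without any one of the 4 libraries. No start-site CpG of Mzb1 had 10 reads in every library, so the wider table, with at least 10 reads a fraction, was read there without a test. Its 5 start-site CpGs, on 11 to 44 pooled reads each, had a mean pooled level of 18.5% in undivided cells, 19.0%, 11.4% and 13.1% after 1, 3 and 5 divisions, 32.4% in CD138- and 1.21% in CD138+ cells. Among the flank CpGs, one 8001 bp beyond the start (chr18:35801019) fell from 100% and 87.3% at Div0 to 60.7% and 45.5% at Div8pos (-40.59 points, adjusted p = 4.12e-10), and kept this call without any one library. Another (chr18:35805040) had 100% in both Div0 libraries and 68.0% and 79.5% at Div8pos (-26.23 points, adjusted p = 0.00769), and was not called without the Div0 library of host 197. Upstream, a CpG at -3079 bp (chr18:35812101) went from 50.0% and 25% at Div0 to 0% and 7.41% at Div8pos (-33.80 points, adjusted p = 0.0336), and its neighbour at -3093 bp (chr18:35812115) from 50.0% and 41.9% to 5.56% and 10.9% (-37.76 points, adjusted p = 0.00223). The first lost its call without any one of the 4 libraries (-21.3 to -46.3 points), and the second without the Div0 library of host 197 (-41.8 points).

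Xbp1 had 14 flank CpGs, the nearest at -4049 bp, and a single called CpG at -28377 bp (chr11:5392592), with 85.7% and 90.7% at Div0, 76.9% and 89.8% at Div8neg and 75.8% and 59.2% at Div8pos (-20.74 points, adjusted p = 0.0189). Its call was lost without the Div0 library (-18.2 points) or the Div8pos library (-12.4 points) of host 197. Its 2 gene-body CpGs in the wider table had pooled means from 1.79% to 9.52%. Among the 10 genes Xbp1 thus had the fewest called CpGs, but only its 14 flank CpGs were at 20% or more at Div0. The 1 called of these 14 stands beside a background of 10.9% of such flank CpGs.

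**Figure D3:**
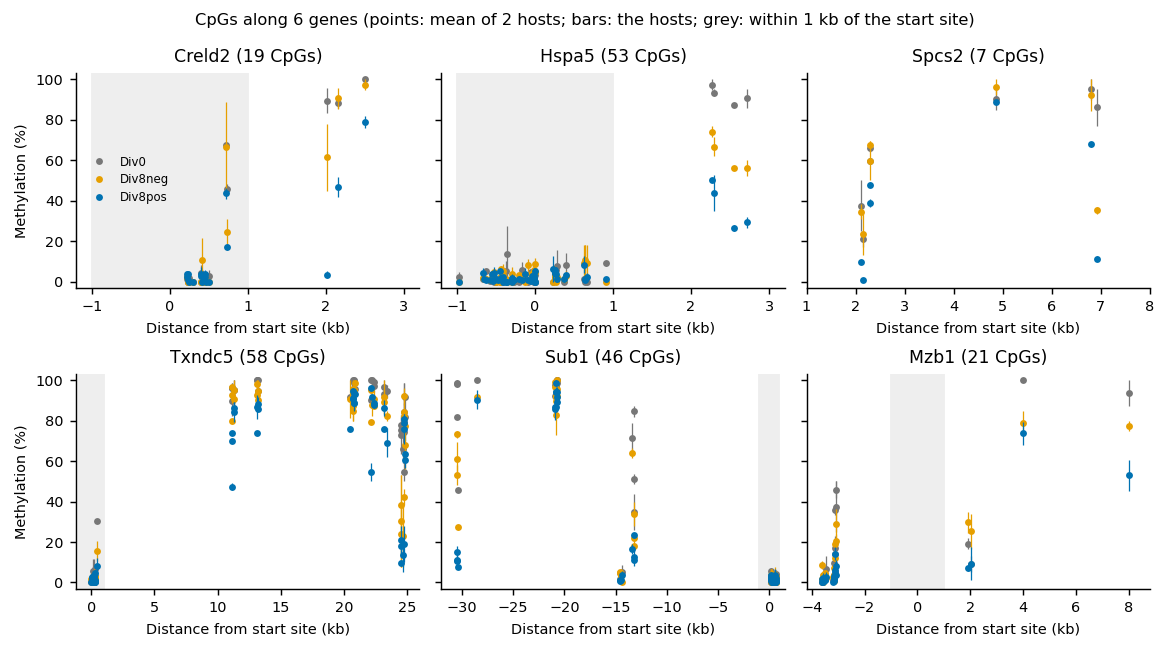
Methylation (%) of single CpGs against distance from the start site (kb) in undivided, CD138- and CD138+ cells of 6 genes; points are means of 2 hosts, vertical bars join the hosts and grey marks 1 kb on each side of the start. Most CpGs beside the start lie near 0 in all 3 fractions in Creld2, Hspa5, Txndc5 and Sub1, except for the called CpGs of Creld2 and Txndc5 inside the grey band. The Spcs2 and Mzb1 panels show no CpG within 1 kb of the start. Beyond the grey band, separated levels appear from 2 kb inside Creld2, Hspa5 and Spcs2, at the far end of Txndc5 and upstream of Sub1.

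Herpud1 and Edem1, which act in the disposal of misfolded proteins, had body differences below the size limit. Herpud1, a membrane protein of the ER that recruits the degradation machinery, had a gene-body level of 51.2% and 51.5% at Div0 and 42.2% and 45.4% at Div8pos over 13 CpGs, a difference of -7.54 points (adjusted p = 0.00161) below the limit of 10. Edem1, which passes misfolded glycoproteins on to degradation, had 74.9% and 69.9% at Div0 and 62.0% and 63.9% at Div8pos over 10 CpGs (-9.47 points, adjusted p = 0.000629), also below the limit. That of Edem1 passed it without the Div0 (-11.97) or the Div8pos (-10.42) library of host 197. The groups did not overlap in either gene. Of the 5 called CpGs of Herpud1, the upstream one at -3750 bp (chr8:96906649) kept its call without any one library, with 97.4% and 97.5% at Div0, 84.0% and 89.8% at Div8neg and 72.1% and 75.3% at Div8pos (-23.73 points, adjusted p = 5.36e-06). Its neighbour at -3727 bp (chr8:96906672) differed by -21.83 points, and a CpG beyond the gene (chr8:96921198) by -27.50, and each lost its call without at least one library. An exon CpG (chr8:96917702) was called, from 93.3% and 89.1% to 63.0% and 54.8% (-32.33 points, adjusted p = 0.000253), but not without the Div0 (-34.5 points) or Div8pos (-28.2 points) library of host 197. Another at -7448 bp (chr8:96902951) had 63.6% and 75% at Div0, 28.6% and 37.8% at Div5, 38.5% and 22.9% at Div8neg and 35.1% and 40.9% at Div8pos, and so was as low in the CD138- cells as in the CD138+ cells (Div8neg minus Div0, -38.66 points, adjusted p = 0.00646). That call was lost without the Div0 (-33.0 points) or the Div8neg (-30.9 points) library of host 197. The 7 called flank CpGs of Edem1 lie 225458 to 553450 bp from it, and are assigned to it only as the nearest gene.

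Derl3, a derlin of the channel through which proteins leave the endoplasmic reticulum, had no gene-body CpG in the main table. In the wider table its 5 gene-body CpGs, 1342 to 2045 bp downstream on 10 to 35 pooled reads each, had a mean pooled level of 82% in undivided cells, 76.4%, 76.2% and 79.6% after 1, 3 and 5 divisions, 68.7% in CD138- and 37.9% in CD138+ cells. Upstream, 2 flank CpGs of Derl3 were called lower in Div8pos than in Div0, at chr10:75349691 (-26.82 points) and chr10:75352539 (-21.77 points), and each lost its call without the Div0 library of host 197. The wider table's values have no test. They show the same order as the tested bodies of Hspa5 and Creld2, for which the wider table gave 80.9%, 55.7% and 35.8% over 6 CpGs, and 94.5%, 81.5% and 48.3% over 12 CpGs, at Div0, Div8neg and Div8pos. The medians of all gene bodies tested run in this order too, at 92.4%, 86.8% and 81.2%, so the order is not particular to these genes.

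Spcs2 is a subunit of the signal peptidase, which cuts the signal peptide from proteins entering the endoplasmic reticulum. Its 7 gene-body CpGs had a mean level of 67.7% and 62.5% at Div0, 63.4% and 53.4% at Div8neg and 37.2% and 38.4% at Div8pos (Div8pos minus Div0, -27.25 ± 4.37, SE, adjusted p = 0.000791). An intronic CpG at +6929 bp (chr7:107000463) had 95.1% and 77.0% in undivided cells and 85.4% and 84.7% after 1 division. It had 64.8% and 67.0% after 3 divisions and 50.0% and 56.9% after 5. The CD138- cells had 33.3% and 36.9%, and the CD138+ cells 12.5% and 9.93%. In both hosts each fraction after Div1 was lower than the one listed before it. Its difference from Div0 was -32.63 points at Div5 (adjusted p = 0.002), -50.93 at Div8neg (adjusted p = 4.63e-08) and -74.84 at Div8pos (adjusted p = 1.86e-33). The calls at Div8neg and Div8pos held without any one library, while that at Div5 was lost without the Div0 library of host 196 (-23.6 points) or the Div5 library of host 197 (-36.1 points). Nearer the start, a CpG at +2152 bp (chr7:107005240) had 25% and 17.1% at Div0, 33.3% and 13.3% at Div8neg and 0% and 1.67% at Div8pos. It lies in the promoter window of the neighbouring gene Xrra1. It was one of 3 called of 4 CpGs between chr7:107005092 and chr7:107005280, whose mean level was 50.9% and 41.2% at Div0, 52.6% and 40.0% at Div8neg and 23.3% and 25.3% at Div8pos. None of these 3 calls held without every library in turn. The called CpG at chr7:107000589 (-27.18 points) also did not. The 6 start-site CpGs of Spcs2 in the wider table had mean pooled levels from 0.667% to 3.35%.

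Sub1 encodes PC4, a nuclear DNA-binding coactivator and not a protein of the secretory pathway itself. Its changes lay upstream. Over 4 CpGs from -30368 to -30489 bp (chr15:11956131-11956252) the mean level was 82.2% and 80.3% at Div0, 65.6% and 65.0% at Div5, 50.5% and 56.9% at Div8neg and 9.37% and 12.7% at Div8pos. At one of them (chr15:11956252) the level was 100% and 96.4% at Div0, 75% and 71.4% at Div8neg and 7.14% and 15.2% at Div8pos, a Div8pos minus Div0 difference of -87.07 points. That difference (adjusted p = 5.47e-13) was the largest among the 503 CpGs in this comparison. The 4 CpGs from -13158 to -13378 bp (chr15:11938921-11939141) had 57.9% and 63.4% at Div0, 34.1% and 35% at Div8neg and 16.5% and 15.3% at Div8pos. Within that group one CpG (chr15:11938921) had fallen by Div8neg, to 27.8% and 40.0%, and another (chr15:11939141) had 66.7% and 61.8% there and 13.9% and 18.9% at Div8pos. The Div8pos minus Div0 calls on all 4 CpGs of the farther group and on these 2 held without any one library. A called CpG farther upstream (chr15:11969534, -27.84 points) did not hold. The 24 start-site CpGs stayed between 0.747% and 1.95% on average in every library.

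In the CD138- cells 10 of the 503 CpGs were lower than at Div0 and 1 was higher, against backgrounds of 0.781% and 0.0397%. The 10 lie in Hspa5 (3), Sub1 (3), Creld2, Herpud1, Txndc5 and Spcs2, and Hspa5 was the one body level called, in a background of 4.94%. The count dropped to 2 without the Div0 library of host 197 and to 5 without the Div8neg library of host 197. The CpG that rose lies upstream of Derl3 (chr10:75349834), with 16.7% and 13.04% at Div0, 21.9% and 32.8% at Div5, 25% and 53.5% at Div8neg and 13.5% and 16% at Div8pos (Div8neg minus Div0, 24.39 points, adjusted p = 0.0254). Its Div8neg hosts lay far apart, and the call was lost without the Div8neg library of host 197 (10.1 points), or either Div0 library (26.2 and 22.6 points). From Div8neg to Div8pos 16 CpGs were lower and 0 higher, against backgrounds of 0.636% and 0.00697%, and 7 and 5 of them were called without the Div8pos or the Div8neg library of host 197. The body levels of Hspa5, Creld2 and Spcs2 (-20.56 points, adjusted p = 0.00839) were called in that comparison, in a background of 7.03%. That of Spcs2 was not called without the Div8neg library of host 196 (-15.56 points, adjusted p = 0.0514). The Txndc5 body differed by -9.47 points from Div0 to Div8neg (adjusted p = 0.00671) and by -9.54 from Div8neg to Div8pos (adjusted p = 0.00473), both under the limit of 10. The first passed it without the Div0 library of host 196 (-11.13) or the Div8neg library of host 197 (-12.26), the second without the Div8neg library of host 196 (-12.33) or the Div8pos library of host 197 (-10.03). These comparisons share libraries with each other and with Div8pos minus Div0, so their counts are not independent.

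**Figure D4:**
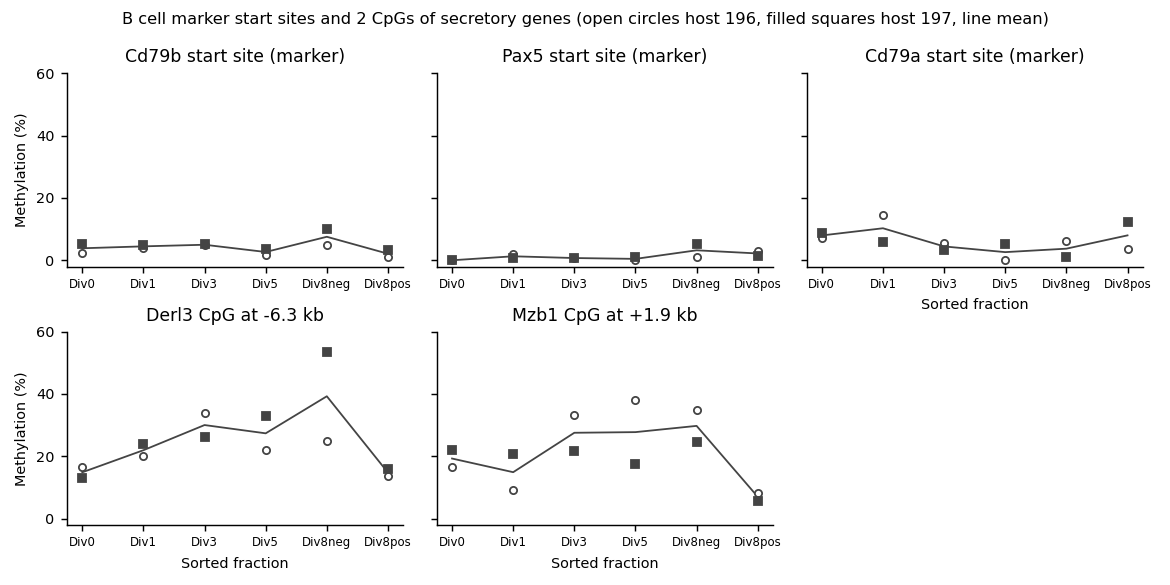
Methylation (%) by sorted fraction at the start sites of 3 B cell markers and at a CpG of Derl3 and one of Mzb1; lines are means of 2 hosts, open circles host 196 and filled squares host 197. The Derl3 and Mzb1 CpGs are highest on average in CD138- cells, as are the start sites of Cd79b (5.03% and 10.04% there) and Pax5 (1.18% and 5.22%). That of Cd79a is not, with means of 7.96% at Div0, 10.27% at Div1 and 3.72% in CD138- cells.

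At earlier divisions few CpGs had changed. In Div5 minus Div0, 2 CpGs were lower, those of Txndc5 and Spcs2 given above, and 0 higher, against backgrounds of 0.123% and 0.00552%. No gene-body level was called at Div5, in a background of 0.376%, and 3 of the 6 were lower at an unadjusted p under 0.05, beside 12.5% of all gene bodies changed in either direction. In Div3 and in Div1 the quasi-binomial model called none of the 503, in backgrounds of 0.027% lower and 0.00118% higher at Div3 and 0% at Div1. The 6 body levels gave 0 calls at both, in backgrounds of 0.00835% and 0%, and 0 at an unadjusted p under 0.05. At an unadjusted p under 0.05, 20 were lower and 9 higher in Div3, and 17 and 9 in Div1, beside 6.06% and 5.44% of all CpGs changed in either direction. The median difference over the 76 gene-body CpGs, which lie in 8 of the 10 genes, was -0.23 points at Div3 and -2.29 at Div5, against -0.40 and -0.73 over all gene-body CpGs.

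A list of 84 further genes of the same machinery was read in the same way. Of their start sites 70 were tested, and 3 of these had the 10% at Div0 that a fall past the size limit needs, so that the 0 calls by limma say little. With no limit on size, 6 of the 70 were lower in Div8pos than in Div0 at an adjusted p under 0.05 and 0 higher, beside 15.4% of all start sites lower. At an unadjusted p under 0.05, 7 were lower and 1 higher, beside 20.4% of all start sites changed in either direction. Of 60 gene bodies tested, 29 were lower in Div8pos than in Div0 and 0 higher, beside the background of 36.7%. The median difference was -9.78 points, near the -8.69 of all gene bodies. Chaperones and folding enzymes had 10 of 14 bodies lower, proteins of translocation and glycosylation 7 of 12, vesicle transport 5 of 13, degradation 4 of 9, and stress sensors and transcription factors 3 of 12. Hspa5 and Creld2 lie beyond every gene of this list. The 5 largest differences were in Atf4 (-31.18 points), the transcription factor made when Perk is active, Ssr1 (-31.12), a subunit of the translocon-associated complex, Serp1 (-27.65), Uggt1 (-27.06), which checks the folding of glycoproteins, and Preb (-24.00). Atf4 was called already at Div5 (adjusted p = 0.0192) and had 42.5% and 39.3% at Div0, 14.0% and 18.0% at Div8neg and 10.97% and 8.53% at Div8pos.

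**Figure D5:**
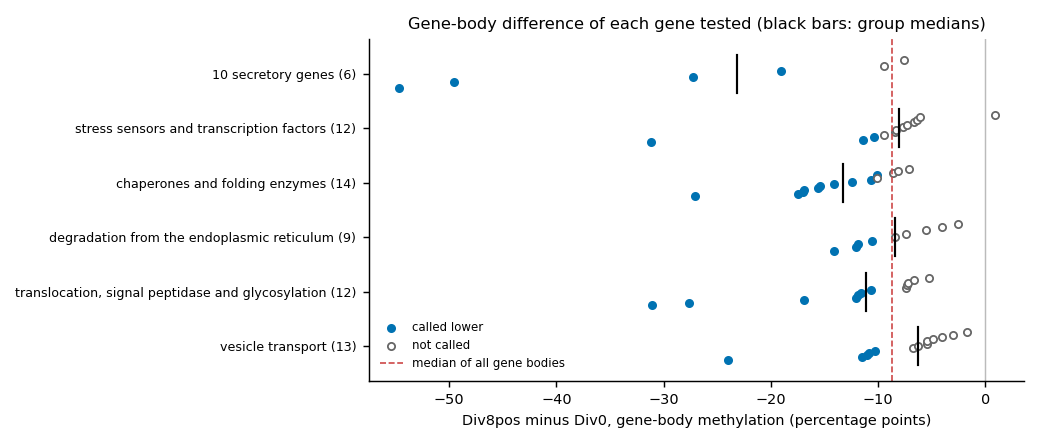
Difference in gene-body methylation between CD138+ and undivided cells (percentage points, x axis) for each gene tested, in rows for the 10 genes and for 5 groups of further genes; filled points are called lower, black bars are medians and the dashed line is the median of all gene bodies at -8.69. The bodies of Hspa5 and Creld2, of 4 and 3 CpGs, lie at -54.71 and -49.55, left of every gene in the other rows. The medians of those rows run from -13.27 (chaperones and folding enzymes) to -6.26 (vesicle transport).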

How the data were processed

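Reduced representation bisulfite libraries of 6 sorted B cell fractions from 2 hosts were analysed, 12 libraries in all. Per the submitters' processing notes, reads were aligned to mm9 with Bismark and Bowtie2; the sources used here give no versions. The deposited tables give, per the file headers, counts of methylated and unmethylated reads and the methylated fraction for each CpG, with both strands collapsed; the fraction equalled the ratio of the deposited counts. The main table holds the 760348 CpGs with at least 10 reads in every library, and 65092 of them have no gene symbol. The wider table, with at least 10 reads in every fraction, was only described. The sources used here do not say whether donor cells were pooled. The deposited sums per fraction were not used.

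Single CpGs were fitted with a quasi-binomial logistic model on the counts (R 4.3.3), with dispersions moderated by limma 3.58.1 to a common 1.15657. Gene and region means were fitted with limma. Both used all 12 libraries, 6 comparisons and Benjamini-Hochberg adjustment over every feature tested, and were tested on simulated data for Div8pos minus Div0. Over 760348 CpGs, 59 of 100 changed by 30 points and 95 of 100 changed by 50 points were recovered. Over 24503 levels, limma recovered 80 of 100 changed by 15 points and 91 of 100 changed by 25 points. Far fewer CpGs were changed there than the 50284 called lower in the data, so these shares do not give the power of the reported fits. Fractions of one host come from the same animal by the labels, which pairs them, while the host differences of 15 pairs of fractions correlated between -0.00179 and 0.00615 over 308172 CpGs. Since all CpGs share that dispersion, the p of a CpG rests on its read counts and the common spread, not on its own difference between the 2 hosts. Coverage differed beyond counting error between all libraries (chi-square over its degrees of freedom at least 1.20). Alternatives were a replicate block, other dispersions, read minimums, size limits, region definitions and each library left out. The rule for naming took all 10 members, their called CpGs, largest differences and runs of at least 3 called CpGs, and at most 5 pathway genes per region; CpGs inside a run and those of Edem1 are given as ranges. The members, gene lists and tests were chosen with earlier results of these data known. A fit without the Div8neg libraries was added after seeing the data. One marker gene of the list is not reported here.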

Additional observations from a re-analysis of the deposited data

How the results depend on the processing

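The count of CpGs called depended on depth. With at least 20 reads in every library, which left 166 of the 503 CpGs, the counts were 15 for Div8pos minus Div0 in place of 57, 3 for Div8neg minus Div0 in place of 11, 8 for Div8pos minus Div8neg in place of 16 and 1 for Div5 minus Div0 in place of 2; fewer CpGs were tested, and all called CpGs that could still be tested kept their call. Leaving out one library gave 25 to 53, 2 to 9, 5 to 15 and 0 to 2 calls in the same comparisons, lowest without the Div0 library of host 197 for Div8pos and Div8neg minus Div0. Of gene bodies, 2 in place of 4 were called for Div8pos minus Div0 with at least 5 CpGs a level, 2 with at least 20 reads, and 4 to 5 without one library. For Div8neg minus Div0, 0 in place of 1 were called with at least 5 CpGs, with the promoter class as start site and with 20 reads, 3 with a size limit of 5 points, and 1 to 2 without one library. For Div8pos minus Div8neg, 1 in place of 3 was called with at least 5 CpGs, with the promoter class and with 20 reads. The mean gene-body level at Div8pos was 24.9% with the promoter class in place of 48.8%, since other CpGs then form the bodies. With the replicate block, which uses the pairing by host, 56 of the 57, all 11, 15 of the 16 and both Div5 calls were kept. No called difference changed sign under the settings run. Among uncalled levels some did: with the promoter class as start site, Div8pos minus Div0 was 0.32 points in place of -1.45 for Edem1 and -3.93 in place of 0.29 for Herpud1. The start-site levels themselves depended on that choice. By the promoter class, which also takes the windows of neighbouring genes, they were 17.2% at Div0 and 7.51% at Div8pos for Creld2 (-9.66 points, adjusted p = 0.000525 by limma), 47.6% and 43.7% for Herpud1, and 29.3% and 5.18% for the 2 such CpGs of Spcs2, too few for a test. Start-site levels gave 0 calls in every setting, but most were too low to fall by the limits of 10 or 5 points.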
